A study of Mus musculus with 13 samples.

Results

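The comparison described here is that of fetal oocytes lacking the glucocorticoid receptor (GR) in the whole body with wild-type oocytes, and it rests on 6 of the 13 female germ cell libraries of the series, chosen by their labels. The 3 KO libraries come from embryos homozygous for a deletion of exon 3 of *Nr3c1*, the gene encoding GR, and the 3 WT libraries carry both intact copies. All 6 embryos were female, were collected at E17.5 and are labelled Tg(Pou5f1-EGFP)2Mnn Nr3c1tm1.1Jda. The null allele was made with a β-actin Cre line, so that GR was missing from ovarian somatic cells and from the rest of the embryo as well as from germ cells. Both parents carried a single null copy, the GFP reporter driven by *Pou5f1* came from the father, and GFP+ germ cells from the ovary pair of each embryo were sorted and sequenced with a 3' Tag-Seq protocol. The labels call the libraries biological replicates and name no litter, so p-values measure the spread between embryos whose litters are unknown. The other 7 libraries, used for the estimate of the spread and for a single comparison at the end, are 4 cKO and 3 flox libraries of a conditional cross, also at E17.5. There, floxed exon 3 was removed by *Pou5f1*-CreERT2 in cKO embryos but not in Cre-negative flox embryos, and every dam, of either kind of embryo, had been given tamoxifen (125 μg / g) in mid-gestation.

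GR is a nuclear receptor that is held in the cytoplasm by chaperones until a glucocorticoid binds it. It then enters the nucleus, where it activates genes such as *Fkbp5*, *Tsc22d3* and *Per1* at DNA elements made of inverted half-sites and also represses inflammatory genes. At E17.5 the germ cells of the mouse ovary are oocytes in meiotic prophase I. The comparison asks which mRNAs of these cells differ when GR is missing from the whole embryo.

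Between 2204231 and 3674989 reads were counted on genes in the WT libraries and between 2082062 and 2563950 in the KO libraries. At this depth 13086 genes passed the filter on low counts and were tested with edgeR's quasi-likelihood test in a fit of all 13 libraries. Levels are given as CPM, a count scaled by the TMM-normalized size of its library, and a log2 fold change is that of the fit, KO minus WT. The log2 CPM of the tested genes correlated between 2 WT libraries with a Pearson r of 0.781 to 0.788, between 2 KO libraries with an r of 0.762 to 0.788, and between a WT and a KO library with an r of 0.7595 to 0.8, so that the 3 ranges overlapped. These correlations are across genes, which are not independent replicates.

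The sorted cells had the transcripts of fetal oocytes. Of 10 fetal oocyte markers, 9 had 368 or more counts in every library, among them *Sycp1* and *Smc1b*, which encode a synaptonemal complex protein and a meiotic cohesin. The exception was *Stra8*, a gene of meiotic entry, with 14 counts in WT replicate 3 and 0 in the other 5 libraries. Together the 10 markers took 1.33% to 1.36% of the reads in WT and 1.31% to 1.71% in KO. Of 15 ovarian somatic markers, all had counts in at least 1 library, and their sum was 0.0119% to 0.0172% of the reads in WT and 0.00942% to 0.0129% in KO. Among them the pregranulosa gene *Foxl2* had 1 to 22 counts in WT and 0 to 24 counts in KO. *Nr2f2*, a nuclear receptor of ovarian stroma, had 233, 106 and 169 counts in WT and 83, 49 and 86 in KO (log2 fold change −1.10, standard error 0.50, but −0.62 without WT replicate 1). Of 8 erythroid markers, *Hbb-bh1*, *Hbb-y* and *Alas2* were among those with 0 counts in all 6 libraries, and the sum was 0.00862% to 0.0238% in WT and 0% to 0.0156% in KO. KO replicate 3 had no erythroid count at all. Of 8 macrophage markers, *Cd68* and *Lyz2* had 0 counts throughout, while the sum of the list was 4.54e-05% to 0.000245% in WT and 0.00105% to 0.00673% in KO. The KO reads of this list came from *C1qc* with 149 counts in KO replicate 3 alone, *Tyrobp* with 48 counts in KO replicate 2 alone, *C1qb* with 17, 22 and 1 counts, and 2 further genes. Of 6 endothelial markers, *Egfl7* and *Cldn5* had 0 counts throughout, and the sum was 0.003% to 0.00386% in WT and 0.000192% to 0.00261% in KO. The macrophage and the endothelial sums did not overlap between the groups (two-sided exact permutation test, p = 0.1 for each, which is the least that 3 libraries against 3 allow). In sorted bulk samples, fewer cells of a type and less RNA per cell cannot be told apart, and the part of these cells in the results below was not tested.

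*Nr3c1* itself (ENSMUSG00000024431.15, chromosome 18, 39410545 to 39519421 of mm10) had 104, 61 and 216 counts in WT and 90, 54 and 167 in KO. The ranges overlapped almost fully, and the fitted log2 fold change was −0.00 with a 95% interval of −1.11 to 1.10. A 3' tag is expected near the polyadenylated end, downstream of exon 3, but where the reads of this gene fall was not examined. The paper reports a loss of *Nr3c1* transcript in KO ovaries at an earlier stage, by 3' single-cell RNA-seq and by qRT-PCR. Its qRT-PCR primers span a junction with exon 3, which the deletion removes, whereas the counts here are for the whole gene. The paper also shows loss of GR protein, by immunofluorescence in ovaries at E17.5 and by immunoblot of whole embryos at an earlier stage. The counts here do not show a loss of transcript, and the reason was not tested. They therefore do not check the labels.

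Across all genes, 0 of 13086 were called at an adjusted p of 0.05 or less (0% of those tested), and the lowest Benjamini-Hochberg adjusted p of the edgeR fit was 0.303. At an unadjusted p under 0.05, 309 genes were higher in KO (2.36% of those tested) and 452 were lower (3.45%). Among these 761 genes, 254 had 0 counts in all KO or in all WT libraries. A library with 0 counts occurred for 370 of the 761 (48.6%), against 30.1% of the genes tested. The 761 genes are a description, since no gene passed the adjusted test. Of these, 132 kept an unadjusted p under 0.05 in the same direction when each of the 6 libraries was left out in turn, 40 of them higher and 92 lower in KO, and 629 lost it at least once. Without the use of the fitted spread, 496 genes had all 3 KO libraries above all 3 WT libraries (3.79%) and 742 had all 3 below (5.67%). In DESeq2's Wald test 11 of 18127 genes were called, all lower in KO. Those with the lowest p, *Gm34068* and *Anks4b*, had 104, 0 and 0 and 0, 1 and 25 counts in WT, so that each rests almost on a single library. *Rgl2*, *Rpl23a*, *Pxmp4*, *Dnaic1*, *Ptpra*, *Rmi1* and *Mettl23*, described below, were also called there. Without the filter on low counts edgeR called 15 of 22038, of which 2 were higher and 13 lower. With WT replicate 3 left out, 2 genes were called, *Acp1* and *Ablim1*, both higher in KO.

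**Figure D1:**
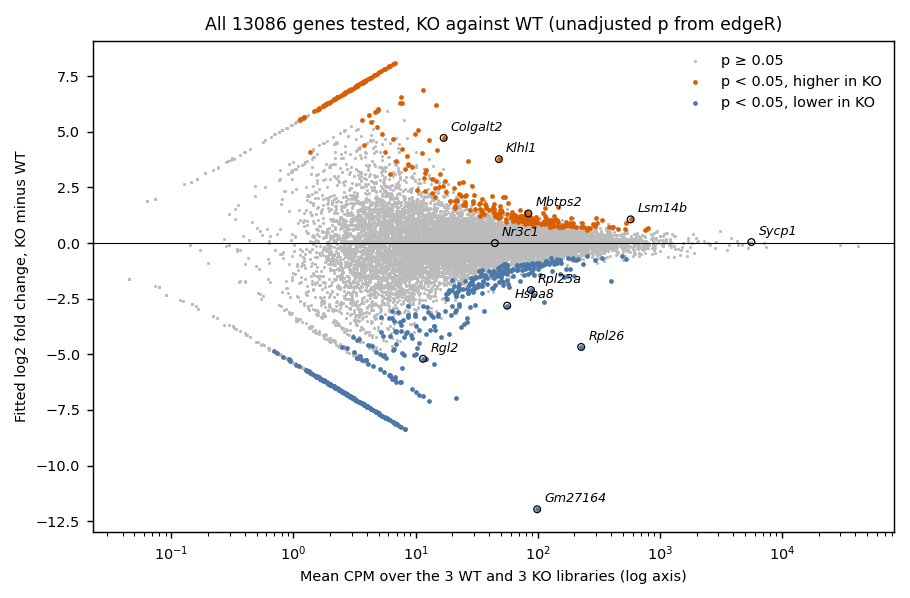
Fitted log2 fold change of KO against WT (vertical axis) plotted against the mean CPM over the 6 libraries (horizontal log axis) for the tested genes, with the 309 genes at an unadjusted p under 0.05 that were higher in KO in orange and the 452 that were lower in blue. Circled genes are named in the text, and the straight diagonal edges at low CPM are genes with counts in only 1 of the groups.

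How narrowly these data bound a difference depended on a gene's level. The 95% interval of the fold change lay within a log2 value of 1 on both sides of 0, meaning less than a doubling in either direction, for 1487 genes (11.4%). Among genes with a mean of 500 CPM or more, 194 of 241 (80.5%) had such an interval. The share was 501 of 749 (66.9%) from 200 to 500 CPM, 598 of 1464 (40.8%) from 100 to 200 CPM and 192 of 1950 (9.85%) from 50 to 100 CPM. It was 0 for every class under 20 CPM. The data thus bounded a change of this size for most genes over 200 CPM and for almost no gene under 50 CPM.

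The counts of higher and lower genes are given for genes with and without a library at 0, a split that the difference itself can decide, since a gene that is low in KO is more likely to have a KO library at 0. Of the 9149 tested genes with at least 1 count in each of the 6 libraries, 194 were higher (2.12%) and 197 lower (2.15%) in KO at an unadjusted p under 0.05, while 413 had all KO libraries above WT and 494 all below. Of the 3937 genes with 0 counts in at least 1 library, 115 were higher (2.92%) and 255 lower (6.48%), while 83 had all KO libraries above and 248 all below. In this second class the KO libraries held 5194 values of 0 and the WT libraries 3636. Over the whole table, 152 genes had 0 counts in all 3 KO libraries and at least 1 count in every WT library, and 33 showed the reverse. With at least 10 counts asked of every library of the other group, 16 genes had counts in WT only and 2 in KO only.

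More genes were detected in WT than in KO libraries. At least 1 count was seen for 13841, 14350 and 14721 genes in the WT libraries and for 13544, 13183 and 12946 genes in the KO libraries. At an equal depth of 2082062 reads, which was an analysis added after the data were seen, the numbers expected were 13714.3, 14279.0 and 14111.4 in WT and 13319.0, 13183.0 and 12739.2 in KO. Every KO library was thus below every WT library, with means of 14034.9 ± 290 in WT and 13080.4 ± 303.2 in KO (SD, n = 3 each, two-sided exact permutation test, p = 0.1, the least possible). KO replicate 3, which had the fewest genes, also had 14.9% of its reads in its 10 most abundant genes, against 7.56% in KO replicate 1 and 10.2% in KO replicate 2. The WT libraries had 10.9% to 12.6%. The number of sorted cells per library was not analysed here.

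**Figure D2:**
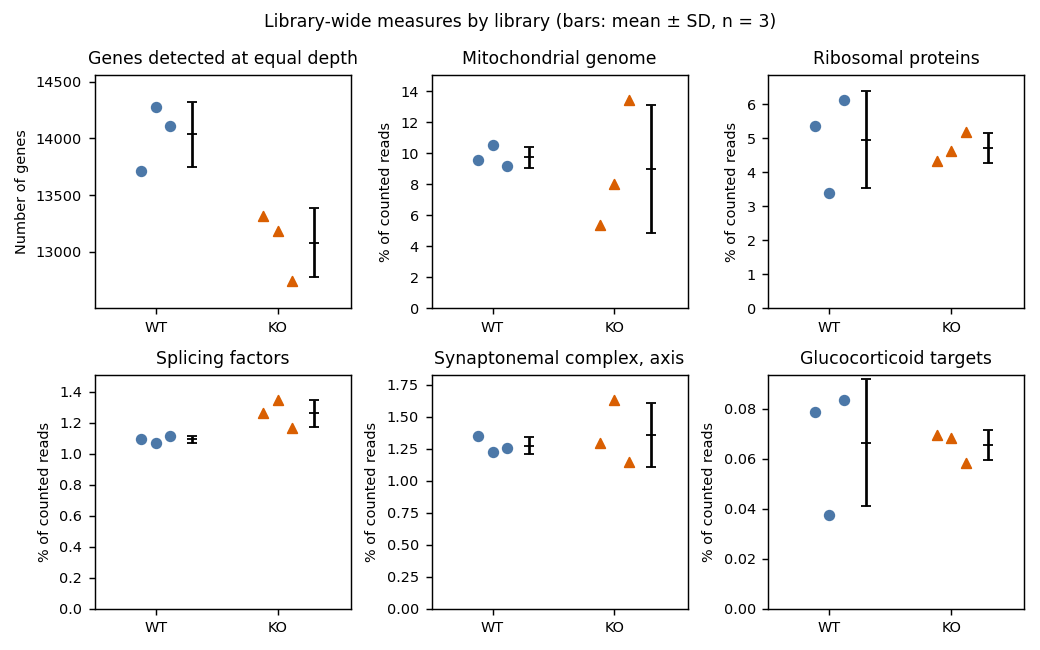
Number of genes expected at equal depth (first panel, axis not starting at 0) and the percent of counted reads taken by gene classes (other panels) in each WT library (blue circles) and KO library (orange triangles), with mean ± SD beside the points (n = 3). The number of genes and the share of splicing factor genes did not overlap between the groups, while the mitochondrial share was most spread among the KO libraries.

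By kind of gene, 276 of 11542 protein-coding genes were higher (2.39%) and 370 lower (3.21%) in KO at an unadjusted p under 0.05. Long intergenic noncoding RNA genes leaned further to the lower side, with 8 of 604 higher (1.32%) and 32 lower (5.30%), as did antisense genes with 7 of 299 higher (2.34%) and 19 lower (6.35%). The median standard error was 1.94 for the former and 2.00 for the latter against 0.75 for protein-coding genes. Genes of any kind at low level leaned to the lower side as well. At a mean under 2 CPM 3.03% were higher and 6.48% lower, from 2 to 5 CPM 3.96% and 7.36%, and from 5 to 10 CPM 1.30% and 3.80%. Whether level accounts for the lean of noncoding genes was not tested. On the X chromosome 12 of 513 genes were higher and 13 lower (2.34% and 2.53%). Chromosome 9 had 12 of 757 higher and 37 lower (1.59% and 4.89%), and chromosome 3 had 18 of 644 higher and 16 lower (2.80% and 2.48%). The median log2 fold change of each chromosome with over 3 tested genes lay between −0.10 and 0.04, beside −0.03 for all genes.

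The transcripts with the lowest p-values were lower in KO. *Rpl23a* (ENSMUSG00000058546.8), which encodes a protein of the large ribosomal subunit, had 349, 263 and 548 counts in WT and 74, 87 and 66 in KO. No KO library came near a WT library, with 143 ± 15.3 CPM in WT and 33.1 ± 7.93 CPM in KO (SD, n = 3 each, log2 fold change −2.11, 95% interval −2.98 to −1.24, adjusted p = 0.303). The annotation overlaps 39.5% of the gene with other genes, where reads could not be told apart without the strand setting of the counting. *Rgl2* (ENSMUSG00000041354.16), an effector of Ras-type GTPases, had 83, 40 and 43 counts in WT and 2, 0 and 2 in KO, the same adjusted p, and no overlap. *Dnaic1*, a gene of the axonemal dynein arm, had 182, 72 and 52 counts in WT and 0, 0 and 2 in KO. Its ratio of 133 has a counting interval of 36.4 to 1100.1, which covers counting error only, since reads without molecular identifiers are not independent molecules. *Ptpra*, a receptor tyrosine phosphatase, had 49, 26 and 110 counts in WT and 1, 0 and 0 in KO, a ratio of 160 with a counting interval of 28.4 to 6368. *Pxmp4*, which encodes a peroxisomal membrane protein, had 76, 71 and 14 counts in WT and 1, 3 and 0 in KO.

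Of the other 5 genes of this group, *Rmi1*, *Hsdl1* and *Gm21738* had counts in every library. *Rmi1*, part of the complex that dissolves recombination intermediates, had 215, 42 and 165 counts in WT and 14, 22 and 16 in KO (log2 fold change −2.79, standard error 0.68). WT replicate 2 lay nearest to the KO libraries but still above them. *Hsdl1* had 168, 115 and 238 counts in WT and 44, 5 and 9 in KO (log2 fold change −3.04, standard error 0.78), again without overlap. *Mettl23*, which encodes a methyltransferase-like protein, had 122, 2 and 79 counts in WT and 1, 0 and 0 in KO, so that WT replicate 2 resembled KO. Other genes overlap 41.3% of *Mettl23*, 14.8% of *Ptpra* and 12.3% of *Rmi1*. Reads there could not be told apart either. *Gm21738* had 737, 396 and 819 counts in WT and 188, 193 and 206 in KO (log2 fold change −1.53, standard error 0.38). The noncoding gene *Gm27164* had 0, 776 and 823 counts in WT and 0 in every KO library, with WT replicate 1 at 0 like the KO libraries. Each of these 10 genes kept an unadjusted p under 0.05 in all 6 fits that left out a library.

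Among the genes higher in KO, *Klhl1* (ENSMUSG00000022076.10, chromosome 14, 96102736 to 96519102 of mm10), which encodes a kelch protein known from neurons, had 8, 29 and 9 counts in WT and 270, 162 and 200 in KO. Every KO library was far above every WT library (6.61 ± 6.3 CPM in WT and 89.8 ± 12 CPM in KO, log2 fold change 3.77, standard error 1.09), although its adjusted p in edgeR was 0.847. *Colgalt2*, a collagen galactosyltransferase, had 0, 6 and 3 counts in WT and 93, 42 and 97 in KO (log2 fold change 4.72, standard error 1.41). *Hcrtr2*, the receptor for orexin peptides, had 1, 0 and 2 counts in WT and 71, 38 and 95 in KO, a ratio of 78.4 with a counting interval of 26.5 to 384. *Mbtps2*, the site-2 protease that activates sterol-responsive transcription factors, had 132, 81 and 170 counts in WT and 252, 213 and 366 in KO (47.8 ± 9.94 CPM against 120 ± 35.6 CPM, log2 fold change 1.33, standard error 0.41). In these 4 genes the groups did not overlap.

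The remaining members of this group were less even. *E330020D12Rik* had 143, 152 and 289 counts in WT and 382, 385 and 743 in KO (log2 fold change 1.62, standard error 0.50), without overlap in CPM. *Tex13c2* had 17, 3 and 9 counts in WT and 141, 178 and 23 in KO (log2 fold change 3.71), and *Spata5l1* had 12, 18 and 15 in WT and 24, 158 and 71 in KO (log2 fold change 2.70, but 1.76 without KO replicate 2). *Acp1*, a low-molecular-weight tyrosine phosphatase, had 20, 6 and 180 counts in WT and 116, 223 and 253 in KO, so that WT replicate 3 overlapped with KO. Its log2 fold change was 2.08 with all libraries and 3.90 without WT replicate 3. *Ablim1*, an actin-binding protein gene, had 13, 22 and 600 counts in WT and 110, 182 and 292 in KO. Its log2 fold change went from 0.51 to 3.42 when that library was left out. *Mrvi1* was seen in KO replicate 3 alone with 58 counts, and *D230022J07Rik* had 4, 0 and 0 counts in WT and 77, 0 and 73 in KO.

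**Figure D3:**
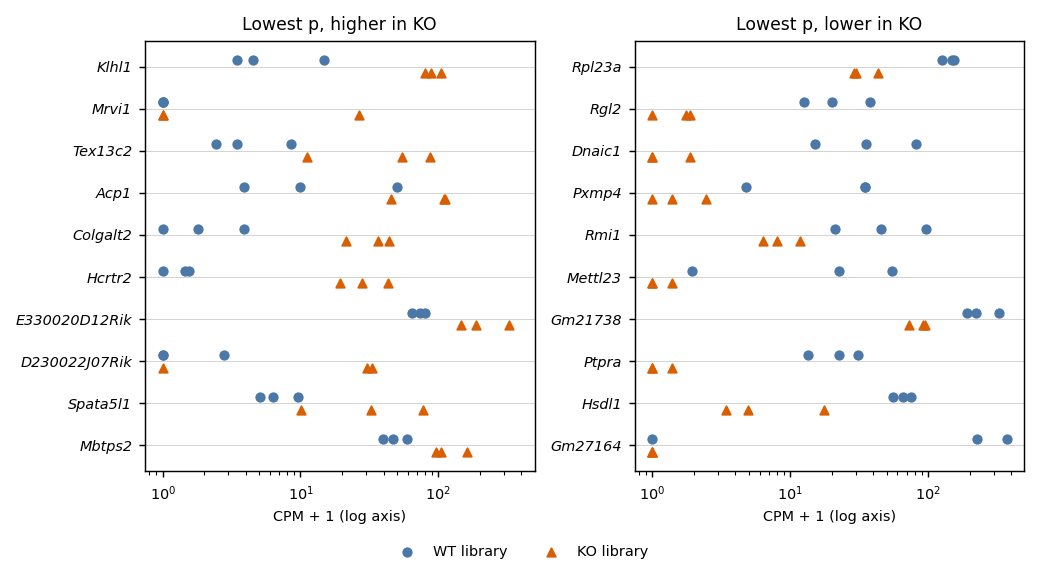
CPM + 1 on a log axis in each WT library (blue circles) and KO library (orange triangles) for the 10 genes with the lowest p-value in each direction, ordered from the lowest p at the top. In 9 of the 10 genes on the right and in 7 of the 10 on the left the points of the groups do not overlap. The genes were picked by p from these same libraries, which favours such a separation. Of all genes tested, 3.79% had all KO libraries above WT and 5.67% all below.

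Genes that glucocorticoids induce in many tissues showed no shared direction. Of 24 such genes 21 were tested. At an unadjusted p under 0.05 none was higher and 1 was lower in KO (2.36% and 3.45% of all genes). Their median log2 fold change was −0.10 beside −0.03 for all genes. None of the 21 had KO libraries all above or all below WT. *Pdk4*, *Tat* and *Pck1* had 0 counts in all 6 libraries. *Tsc22d3*, which encodes the leucine zipper protein GILZ, had 477, 201 and 875 counts in WT and 605, 317 and 247 in KO (log2 fold change −0.15, 95% interval −1.04 to 0.75). *Nfkbia*, which encodes an inhibitor of NF-kappaB, had 244, 159 and 634 counts in WT and 347, 253 and 302 in KO (log2 fold change 0.12, 95% interval −0.66 to 0.90). The member at an unadjusted p under 0.05 was *Mt2*, a metallothionein gene, with 38, 1 and 0 counts in WT and 0 in every KO library, so that it rests on WT replicate 1. It kept that p in 2 of the 6 fits without a library. Only 1 of the 21 genes had an interval within a log2 value of 1 around 0, and the share of reads in the list was 0.0373% to 0.0836% in WT and 0.0584% to 0.0695% in KO (two-sided exact permutation test, p = 1).

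The promoters of these genes were searched for a GR-type element, 2 half-sites in inverted order, written GNACANNNTGTNC, which reads the same on both strands. The window ran from 250 bases before to 50 bases after each start site that RefSeq gives on GRCm38.p6. The element was found for 145 of 27025 genes (0.537%), for 35 of 9793 tested genes (0.357%), for 2 of 21 glucocorticoid-induced genes with a window (9.52%), for 3 of 229 genes at an unadjusted p under 0.05 that were higher in KO (1.31%) and for 1 of 308 that were lower (0.325%). The match is a description of letters, not of binding. The sequences of the 2 induced genes and of the gene higher in KO with the largest number of fits kept are shown with the element in capitals, because they set textbook targets beside a gene with an unadjusted p under 0.05 in these libraries.
Sgk1, chr10:21993694-21993722, + strand: tgcggaaaGAACAGAATGTTCtcggagat
Mt1, chr8:94178987-94179015, + strand: cactatagGGACATGATGTTCcacacgtc
Pot1b, chr17:55712797-55712825, − strand: tatcctttGAACAGTGTGTTCtccccccc
*Sgk1*, a kinase gene, had 18, 2 and 6 counts in WT and 19, 0 and 30 in KO (log2 fold change 0.95, 95% interval −3.08 to 4.97). *Mt1* had 47, 0 and 23 counts in WT and 89, 16 and 28 in KO (log2 fold change 0.99, 95% interval −2.20 to 4.18). Neither gene separated the genotypes. *Pot1b*, which encodes a telomere-binding protein, had 39, 42 and 87 counts in WT and 113, 180 and 169 in KO (log2 fold change 1.74), with all KO libraries above all WT libraries. The other 2 genes with the element that were higher in KO were *Foxj2*, with 27, 79 and 313 counts in WT and 302, 191 and 235 in KO, and *Limd2*, with 33, 30 and 56 in WT and 67, 64 and 153 in KO. Their log2 fold changes of 1.20 and 1.48 became 0.76 for *Foxj2* without WT replicate 1, 2.08 without WT replicate 3, and 0.95 for *Limd2* without KO replicate 3. *Sgk1*, *Mt1*, *Pot1b*, *Foxj2* and *Limd2* were chosen for the element after their values were known.

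The machinery that holds and assists GR differed little between the groups where it was well measured. Of 24 chaperone and coregulator genes all were tested, and 14 had an interval within 1 of 0. At an unadjusted p under 0.05, 0 were higher and 1 lower (2.36% and 3.45% of all genes). The median log2 fold change was −0.07. *Hsp90aa1*, which encodes the chaperone that keeps GR able to bind its ligand, had 15684, 17255 and 23175 counts in WT and 21307, 13903 and 14681 in KO (log2 fold change −0.01, 95% interval −0.47 to 0.44). *Hsp90ab1* had an interval of −0.57 to 0.37. The member with a low p was *Hspa8*, the constitutive HSC70 chaperone gene, with 19, 320 and 495 counts in WT and 52, 31 and 16 in KO (log2 fold change −2.81, standard error 0.83), in which WT replicate 1 lay among the KO libraries. Pseudogenes of *Hspa8* could share its reads, so that its level is uncertain.

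Of 12 genes of other steroid receptors and of glucocorticoid conversion 7 were tested. *Hsd11b1*, which encodes the enzyme that regenerates active glucocorticoid, had 0 counts in all 6 libraries, and *Hsd11b2*, whose enzyme inactivates it, had 3 counts in KO replicate 3 and none elsewhere. *Esr1*, the estrogen receptor alpha gene, had 35, 123 and 169 counts in WT and 41, 5 and 11 in KO (log2 fold change −2.38, standard error 0.89), and kept an unadjusted p under 0.05 in 4 of the 6 fits without a library. Of 22 genes of NF-kappaB and inflammation 11 were tested and 0 passed that limit in either direction, with a median log2 fold change of 0.47. The member with the lowest p was *Stat3*, with 278, 545 and 1163 counts in WT and 892, 477 and 1198 in KO (log2 fold change 0.65), and *Rela* had 116, 161 and 208 in WT and 206, 147 and 240 in KO (log2 fold change 0.47, 95% interval −0.36 to 1.29). In both the groups overlapped. Of 13 circadian clock genes tested, *Tef* alone had an unadjusted p under 0.05, with 425, 467 and 263 counts in WT and 141, 271 and 158 in KO (log2 fold change −0.92, standard error 0.43, but −0.60 without WT replicate 2), and it kept it in 2 of 6 fits.

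Of 13 tested genes of the synaptonemal complex and the chromosome axis, 0 had an unadjusted p under 0.05, 8 had an interval within 1 of 0, and the median log2 fold change was 0.10. *Sycp1* had 14144, 11096 and 18539 counts in WT and 14067, 13336 and 12039 in KO (log2 fold change 0.04, 95% interval −0.48 to 0.57). *Smc1b* had 8926, 8969 and 15975 counts in WT and 9721, 12292 and 8399 in KO (log2 fold change 0.09, 95% interval −0.43 to 0.61). *Stag3*, which encodes another subunit of meiotic cohesin, was the member with the lowest p and the one whose KO libraries were all above WT, at 352 ± 29.5 CPM in WT and 456 ± 19.6 CPM in KO (log2 fold change 0.38, 95% interval −0.18 to 0.94). Of 27 recombination genes tested, 2 were higher and 0 lower at an unadjusted p under 0.05 (2.36% and 3.45% of all genes). *Mnd1*, a partner of the recombinases in strand exchange, had 331, 244 and 319 counts in WT and 439, 300 and 663 in KO (log2 fold change 0.79, standard error 0.36, but 0.43 without KO replicate 3). It kept that p in 3 of the 6 fits. *Brca2*, the member with the most reads, had an interval of −0.76 to 0.46. Of 12 genes of meiotic entry and retinoic acid tested, 0 had an unadjusted p under 0.05, and their median was −0.10, or 0.01 with genes absent from a group set to their bound.

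Of 18 oocyte transcription factor and growth genes tested, 1 was higher and 1 lower at an unadjusted p under 0.05. Over all genes, 2.36% were higher and 3.45% lower at that p. *Sohlh2*, a transcription factor gene of early oocytes, had 71, 108 and 234 counts in WT and 200, 216 and 375 in KO (log2 fold change 1.23, standard error 0.47), and its groups did not overlap in CPM. *Nlrp5*, a maternal-effect gene, had 193, 985 and 102 counts in WT and 133, 84 and 0 in KO (log2 fold change −2.67), a difference that became −0.88 without WT replicate 2. *Figla*, which encodes a transcription factor needed for follicle formation, had an interval of −0.31 to 0.97. Of 10 tested primordial germ cell and pluripotency genes 0 passed that limit. *Dppa3* had the most reads among them, with 405, 716 and 1067 counts in WT and 787, 1169 and 1332 in KO (log2 fold change 0.84, 95% interval −0.08 to 1.76), and *Zfp42* had the lowest p, with 26, 51 and 0 counts in WT and 4, 1 and 0 in KO.

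Of 20 germline RNA-binding protein genes tested, 4 had all KO libraries above WT and 0 had all below (3.79% and 5.67% of all genes). At an unadjusted p under 0.05, 1 was higher and 1 lower (2.36% and 3.45% of all genes), and 7 had an interval within 1 of 0. *Lsm14b*, a gene of oocyte ribonucleoprotein particles, had 984, 522 and 1603 counts in WT and 2522, 1408 and 1592 in KO. It kept an unadjusted p under 0.05 in all 6 fits without a library, with log2 fold changes of 0.85 to 1.20. *Dazl*, which encodes a translational regulator of germ cells, was among the 4 with 2562, 2353 and 4675 counts in WT and 3900, 2888 and 3353 in KO (log2 fold change 0.31, 95% interval −0.22 to 0.83). *Ddx4*, the germ cell helicase gene, had a log2 fold change of 0.59 with an interval of −0.02 to 1.19 and was also higher in every KO library. *Pabpc1l*, a poly(A)-binding protein gene of oocytes, had 82, 0 and 48 counts in WT and 0 in KO. Its mean in WT was 12.6-fold above a floor of 3 counts per library, although WT replicate 2 had 0 counts like the KO libraries. Of 19 piRNA pathway genes tested, 2 were higher and 0 lower at that p (2.36% and 3.45% of all genes). *Gtsf1*, a cofactor of PIWI proteins, had 149, 214 and 668 counts in WT and 316, 380 and 1049 in KO (log2 fold change 1.13, but 0.39 without KO replicate 3), and *Exd1* had 129, 119 and 176 in WT and 213, 199 and 310 in KO (log2 fold change 0.96). *Tex15*, the member with the most reads, had an interval of −0.24 to 0.71.

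Of 25 genes of DNA methylation and chromatin tested, 1 was higher and 1 lower at an unadjusted p under 0.05. Over all genes, 2.36% were higher and 3.45% lower at that p. *Uhrf1*, which recruits the maintenance methyltransferase, had 150, 125 and 179 counts in WT and 262, 250 and 244 in KO (58.3 ± 8.94 CPM against 109 ± 11.1 CPM, log2 fold change 0.91, standard error 0.37). *Kmt2a*, a histone H3 methyltransferase gene, had 263, 312 and 536 counts in WT and 227, 196 and 79 in KO (log2 fold change −0.93, standard error 0.43, but −0.59 without KO replicate 3). Neither gene overlapped between the groups. Of 22 genes of apoptosis and the oocyte checkpoint, 1 was higher and 1 lower at that p (2.36% and 3.45% of all genes). The kinase gene *Atm* was lower, with 369, 851 and 516 counts in WT and 277, 305 and 151 in KO (log2 fold change −1.15, but −0.50 without WT replicate 2). The kinase gene *Chek1* was higher, with 141, 168 and 224 in WT and 320, 214 and 279 in KO (log2 fold change 0.78, standard error 0.37). *Chek1* had an unadjusted p over 0.05 in each fit without a library except that without WT replicate 2. Of 32 cell cycle genes, *Mad2l1*, a gene of the spindle checkpoint, was the single member past that limit, with 220, 65 and 457 counts in WT and 437, 381 and 385 in KO (log2 fold change 1.04, but 0.65 without WT replicate 2).

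Splicing factors had the largest share of members at an unadjusted p under 0.05 among the 24 pathway lists, with 8 of 50 tested genes (16%) beside 5.82% of all genes tested. Of these, 5 were higher and 3 lower in KO. In the list 7 genes had all KO libraries above WT and 3 all below, beside 3.79% and 5.67% of all genes, and the median log2 fold change was 0.14. *Sf3a3*, a subunit of the U2 particle, had 87, 91 and 188 counts in WT and 253, 254 and 296 in KO (44.4 ± 6.36 CPM against 117 ± 18 CPM, log2 fold change 1.39, standard error 0.43), and kept that p in all 6 fits. *Sf1*, which encodes the branch point binding protein, had 183, 135 and 332 counts in WT and 285, 422 and 363 in KO (log2 fold change 1.00, standard error 0.36). *Hnrnpa1* had 8, 0 and 4 counts in WT and 9, 83 and 94 in KO. It has many pseudogenes that can share its reads, and its level is uncertain. *Snrpa*, a protein of the U1 particle, went the other way with 68, 142 and 149 counts in WT and 44, 42 and 25 in KO (log2 fold change −1.52, standard error 0.56). The other 4 members, named after their values were seen, were *Hnrnpc* (log2 fold change 0.72), *Snrpb* (0.71), *Prpf3* (−1.47) and *Snrpc* (−1.26), the last also of the U1 particle. *Snrpc* had −0.65 without WT replicate 2, and *Prpf3* had −2.43 without KO replicate 1 and −0.97 without KO replicate 3. *Hnrnpu*, the member with the most reads, was higher in every KO library with an interval of −0.08 to 1.01. Together the list took 1.09%, 1.07% and 1.11% of the reads in WT and 1.26%, 1.35% and 1.17% in KO, without overlap (two-sided exact permutation test, p = 0.1, the least possible). The same exact permutation test gave p = 0.1 for 3 other lists of the 31 whose share of all counted reads was computed, the macrophage, endothelial and steroid receptor lists. With mitochondrial genes left out of the total the steroid receptor list had p = 0.3 and the cell cycle list p = 0.1 in this permutation test, while the splicing, macrophage and endothelial lists stayed at 0.1.

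Of 77 tested cytosolic ribosomal protein genes, 5 were lower and 2 higher at an unadjusted p under 0.05 (3.45% and 2.36% of all genes), 37 had an interval within 1 of 0, and the median log2 fold change was −0.03. Beside *Rpl23a*, the lower members were *Rpl21* with 805, 209 and 1549 counts in WT and 255, 172 and 316 in KO (log2 fold change −1.46, standard error 0.49), *Rps19* with 1288, 1192 and 3142 in WT and 1242, 856 and 705 in KO (log2 fold change −0.73, standard error 0.27), *Rps15* (log2 fold change −0.59, standard error 0.28) and *Rpl26*. The last had 54, 115 and 4537 counts in WT and 20, 21 and 77 in KO, and its log2 fold change went from −4.67 to −1.18 without WT replicate 3. The higher members, *Rpl39l* (log2 fold change 0.89, but 0.56 without KO replicate 3 and 0.52 without WT replicate 2) and *Rpl3l*, which had 0 counts in WT and 7, 12 and 1 in KO, are paralogs with restricted expression. *Rpl37*, with the most reads of the class, had an interval of −0.73 to 0.56 and *Rps20* one of −0.82 to 0.19. Ribosomal protein genes have many processed copies in the genome, so that reads of single members are uncertain. The class took 5.37%, 3.39% and 6.14% of the reads in WT and 4.35%, 4.62% and 5.2% in KO (two-sided exact permutation test, p = 0.9). *Rps15*, *Rpl39l* and *Rpl3l* were named after their values were seen. Of 40 translation factor genes tested, *Eif2b1* alone passed that limit (log2 fold change 1.02, standard error 0.49, but 0.49 without KO replicate 3 and 1.66 without WT replicate 3), and 17 had an interval within 1 of 0. Of 37 proteasome and ubiquitin genes, *Psmd14* alone passed it (log2 fold change 1.10, standard error 0.40).

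In energy metabolism, genes of the mitochondrial genome varied more among KO embryos than between genotypes. They took 9.56%, 10.51% and 9.18% of the reads in WT and 5.37%, 8.05% and 13.5% in KO, so that KO replicate 1 was lowest and KO replicate 3 highest of all (two-sided exact permutation test, p = 0.8). Of 12 tested mitochondrial genes 0 had an unadjusted p under 0.05 and 9 had an interval within 1 of 0. *mt-Nd2*, a complex I subunit gene, had the lowest p (log2 fold change −0.22, 95% interval −0.79 to 0.35), and *mt-Rnr2*, the large ribosomal RNA gene, had an interval of −0.67 to 0.42. Of 71 nuclear genes of oxidative phosphorylation, 1 was higher and 3 lower at an unadjusted p under 0.05, a share of 5.63% beside 5.82% of all genes. In the list 1 gene had all KO libraries above WT and 7 all below, beside 3.79% and 5.67% of all genes, and the median was 0.07. *Ndufs1*, a core complex I subunit gene, had 46, 180 and 46 counts in WT and 12, 17 and 9 in KO (log2 fold change −2.81, and −1.54 without WT replicate 2). *Ndufv1*, another complex I subunit gene, had 538, 522 and 842 in WT and 511, 317 and 208 in KO (log2 fold change −0.70, standard error 0.31, but −0.45 without KO replicate 3). *Atp5l* had 21, 76 and 8 in WT and 0, 6 and 0 in KO (log2 fold change −4.01, but −8.33 without KO replicate 2 and −2.53 without WT replicate 2), and *Cox8a*, a complex IV gene, had 159, 73 and 160 in WT and 223, 184 and 285 in KO (log2 fold change 1.01). Of 28 genes of glycolysis and the tricarboxylic acid cycle, *Ldhb*, a lactate dehydrogenase gene, passed that limit with 3, 27 and 165 counts in WT and 240, 157 and 191 in KO (log2 fold change 2.06, standard error 0.85, and 3.58 without WT replicate 3).

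Of 23 genes of cholesterol and fatty acid synthesis tested, 2 were higher and 0 lower at an unadjusted p under 0.05. Over all genes, 2.36% were higher and 3.45% lower at that p. *Fdft1*, which encodes squalene synthase, had 3, 35 and 109 counts in WT and 159, 64 and 263 in KO (log2 fold change 2.10, standard error 0.70) and kept that p in all 6 fits. *Mvk*, the mevalonate kinase gene, had 0 counts in WT and 54, 15 and 0 in KO. The median of the list was −0.02. Of 28 genes of insulin, PI3K and mTOR signalling, 2 were higher and 0 lower (2.36% and 3.45% of all genes). *Rheb*, which encodes the GTPase that activates mTORC1, had 195, 114 and 322 counts in WT and 375, 287 and 383 in KO (76.1 ± 18.7 CPM against 150 ± 15.9 CPM, log2 fold change 0.98, standard error 0.34), without overlap and with that p kept in all 6 fits. *Foxo1*, a transcription factor gene downstream of AKT, had 455, 258 and 680 counts in WT and 716, 710 and 537 in KO (log2 fold change 0.74, standard error 0.31). *Foxo3*, which restrains follicle activation, had an interval of −0.40 to 0.78. Of 25 genes of heat shock and the unfolded protein response 0 passed, *Pdia6* had the lowest p (log2 fold change 0.48, 95% interval −0.12 to 1.09) and *Hspa5*, with the most reads, had an interval of −0.42 to 0.60. Of 20 imprinted genes tested, *Mest* was lower, with 34, 7 and 50 counts in WT and 0 in every KO library. Its mean in WT was 8.16-fold above a floor of 3 counts per library, a value that leaves out the spread between WT libraries. *H19* had 914, 1165 and 307 counts in WT and 1431, 859 and 492 in KO (log2 fold change 0.18).

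**Figure D4:**
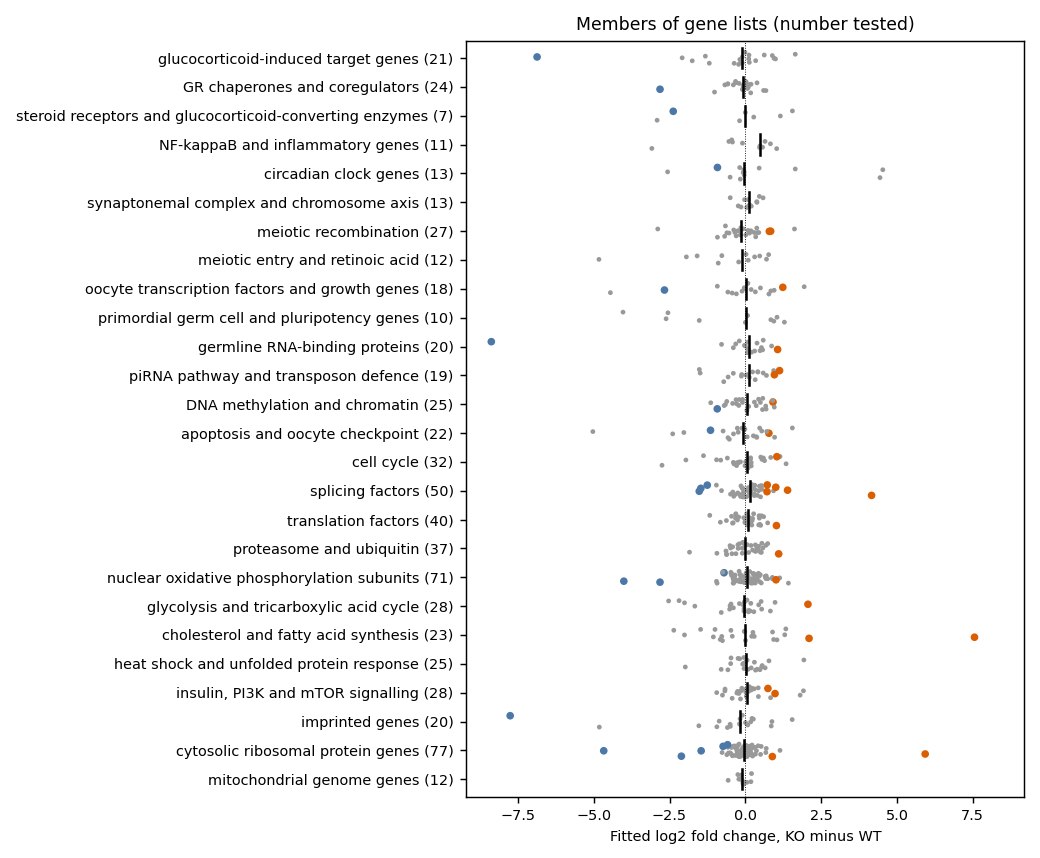
Fitted log2 fold change of KO against WT for every tested member of the 24 pathway lists and of 2 gene classes, with the number tested in brackets and a black bar at the median of each list. Members at an unadjusted p under 0.05 are orange where higher and blue where lower in KO, and every median lies between −0.18 and 0.47.

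The conditional model gives a second set of embryos, since its 7 libraries are not among the 6 compared above, although the gene-wise spread of the fit is shared. A direct test of the difference between the KO and the cKO effect called 0 of 13086 genes (0%, with an adjusted p of 1 at the lowest in edgeR), and 574 had an unadjusted p under 0.05. DESeq2 called 4 genes in this test, *Gm34068*, *Anks4b*, *Vopp1* and *Evc2*. The first had 104 counts in WT replicate 1 and 0 in the other 5 libraries, and *Anks4b* had 0, 1 and 25 counts in WT and 0 in KO. *Vopp1* had 18, 27 and 48 counts in WT and 0 in every KO library, but 0, 3 and 10 in flox and 34, 106, 54 and 43 in cKO. *Evc2* had 33, 17 and 68 counts in WT and 4, 2 and 2 in KO, but 1, 10 and 5 in flox and 24, 25, 120 and 65 in cKO. Of the 761 genes at an unadjusted p under 0.05 in KO, 421 (55.3%) had the same sign in cKO, against 52.2% of all tested genes. In cKO against flox, 418 genes (3.19%) had an unadjusted p under 0.05, and 48 genes did so in both models.

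Of these 48 genes 30 had the same direction, 9 higher and 21 lower. The list was drawn after the values were seen. *Rpl23a* had 238, 406 and 344 counts in flox and 90, 170, 269 and 232 in cKO (log2 fold change −1.11, standard error 0.37). The 3 other ribosomal protein genes in it were *Rpl21* (−1.13 in cKO), *Rps19* (−0.88) and *Rps15* (−0.55), all lower in both models. *Colgalt2* had 5, 9 and 0 counts in flox and 127, 1, 127 and 128 in cKO (log2 fold change 4.01, standard error 1.32), so that 3 of 4 cKO libraries resembled the KO libraries. *Cks1b*, a cofactor of cyclin-dependent kinases, had 137, 67 and 223 counts in WT and 217, 235 and 365 in KO, and 166, 68 and 67 in flox and 492, 149, 273 and 239 in cKO, with log2 fold changes of 1.22 and 1.21. *Nelfa*, which encodes a subunit of the negative elongation factor, had log2 fold changes of 0.88 in KO and 0.86 in cKO, and *Cggbp1*, which encodes a CGG repeat binding protein, had 0.90 and 0.70. *Synj1*, a phosphoinositide phosphatase gene, had 2250, 1383 and 667 counts in WT and 310, 370 and 599 in KO, and 228, 2073 and 259 in flox and 396, 516, 205 and 433 in cKO, where flox replicate 2 alone stood above the cKO libraries. *Myoz3* had 17, 31 and 71 counts in WT and 0 in KO, and 1, 14 and 17 in flox and 0, 0, 0 and 2 in cKO. Many of the others, seen in the corners of the plot of both models, were absent from all libraries of a genotype and low in the other.

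**Figure D5:**
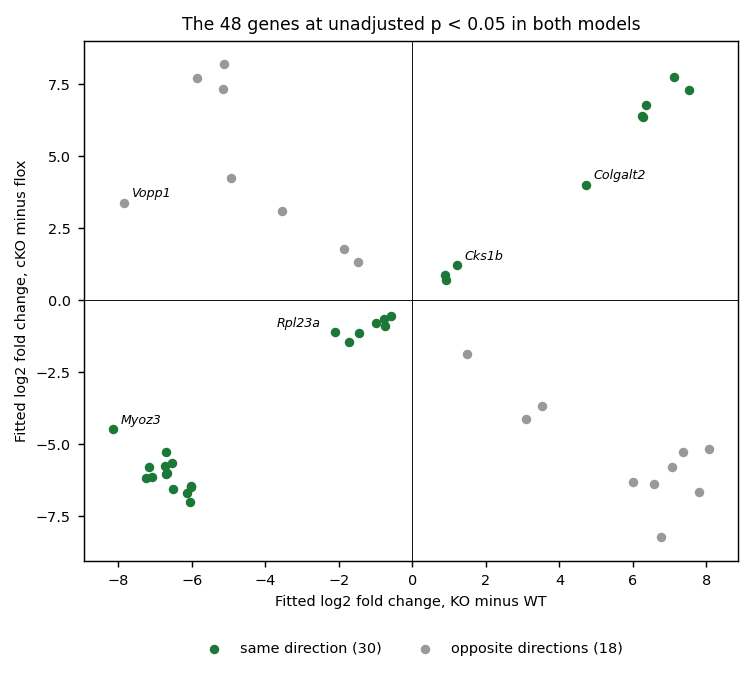
Fitted log2 fold change of cKO against flox (vertical axis) plotted against that of KO against WT (horizontal axis) for the 48 genes at an unadjusted p under 0.05 in both models. Of these, 30 had the same direction (green) and 18 opposite directions (grey), and the clusters beyond a log2 value of 5 on both axes are genes with few counts.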

How the data were processed

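3' Tag-Seq (QuantSeq FWD) libraries were made from sorted germ cells of single embryos. The authors trimmed adapters with cutadapt, aligned reads to mm10 with STAR 2.6.0 and deposited raw counts per gene from featureCounts 1.6.3. The annotation and the strand setting are not given in the sources used here. In all 55335 rows of the deposited counts the length equals the whole gene interval, introns included. Deposited tables of the authors' fold changes and p-values were not used. Symbols came from GENCODE M21 by stable gene identifier (55154 rows), and listed genes were matched by symbol or RefSeq synonym. Promoter windows of chromosome 18 were not used.

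Counts were filtered by filterByExpr (minimum count 10, minimum total count 15), normalized by TMM and tested with edgeR 4.0.16 in R 4.3.3 (glmQLFit, glmQLFTest) with a mean for each of 4 groups, no covariate and Benjamini-Hochberg adjustment over 13086 genes. The common biological coefficient of variation was 0.8415. A prior count of 2 entered the log2 CPM values. The 20 divisions of 3 against 3 libraries allow no permutation p under 0.1. A group with 0 counts was set to a floor of 3 counts per library, and 95% exact intervals were given for 1 to 3 counts. The 24 pathway and 5 marker lists were written by hand, and ribosomal protein and mitochondrial genes were taken by symbol or chromosome. Members, lists and tests were chosen with earlier results of these data known. Named were *Nr3c1*, the 10 genes with the lowest p in each direction, in each list up to 4 members at an unadjusted p under 0.05 or the member with the lowest p, up to 3 of the most abundant members, and genes called by an alternative (all if 10 or fewer, otherwise 5). Some genes that this rule names are not reported here. Alternatives were DESeq2 1.42.0, normalization by RLE or by upper quartile, limma 3.58.1 with voom, other filters, a fit of 6 libraries, a replicate block and each library left out. The test was checked on simulated counts.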

Additional observations from a re-analysis of the deposited data

How the results depend on the processing

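With edgeR's quasi-likelihood test no gene was called in KO against WT. Without the filter on low counts 15 genes were called and with DESeq2 11, and leaving out a library in turn gave 0 to 2. The 761 genes at an unadjusted p under 0.05 became 1231 without the filter, 341 with at least 10 counts in every library, 368 with the KO and WT libraries alone, and 644 to 963 with a library left out. Among genes with a count in each of the 6 libraries, a choice made after seeing the data, there were 391. The 1238 genes without overlap became 644 with at least 10 counts in every library. The test of the difference between the KO and the cKO effect called 8 genes without the filter and 4 with DESeq2. Fewer genes enter the stricter filters, and the cause of the other differences was not tested.

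The labels do not say whether the replicate numbers pair the samples. Deviations of KO and WT libraries with the same number correlated at −0.0187, −0.00982 and −0.0232, and those with other numbers at 0.00133 to 0.0163. Such values cannot show whether any embryos shared a litter. With the number as a replicate block, 408 genes had an unadjusted p under 0.05 and 0 were called.

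*Nr3c1* had a log2 fold change of 0.0114 with RLE, 0.0237 without the filter and 0.0126 with DESeq2, and −0.56 to 0.28 with a library left out. *Hsp90aa1* had 0.00211 with RLE, 0.0195 with limma voom, 0.0193 without the filter and 0.00436 with DESeq2, and −0.10 to 0.11 with a library left out. Leaving out a library also changed the sign of *Ablim1* (−0.0171 to 3.42), *Tsc22d3* (−0.46 to 0.11), *Nfkbia* (−0.11 to 0.50), *Hsp90ab1* (−0.22 to 0.19), *Sycp1* (−0.046 to 0.16), *Smc1b* (−0.17 to 0.22), *Rpl37* (−0.31 to 0.0804), *mt-Nd2* (−0.62 to 0.0124), *mt-Rnr2* (−0.57 to 0.19), *Hspa5* (−0.0545 to 0.25) and *H19* (−0.28 to 0.70). Of 1433 alternative values for 108 named genes, 1384 kept their direction and their side of the adjusted threshold. No gene was called in the main fit, so no call could be lost, and changes in size were not counted. The 1384 values are therefore no measure of stability. Of the 761 genes at an unadjusted p under 0.05, 629 lost it in at least 1 fit without a library. In 8 lists, 19 of 429 list medians moved by more than the spread between replicates. *Mrvi1*, *Tyrobp* and *Stra8* have no value without the library that holds their counts. Depth limits genes of low level most.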
